A study of Mus musculus with 12 samples.

Results

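The 9 HoxA cluster genes Hoxa2, Hoxa3, Hoxa4, Hoxa5, Hoxa6, Hoxa7, Hoxa9, Hoxa10 and Hoxa11 were described across 4 mouse arteries. They were taken by symbol from the array annotation, through probe sets with 1 gene symbol. Each of the 9 had 1 such probe set, among 19938 genes tested in all. Hoxa13 was measured too and is given with the genes around the cluster. The vessels were 2 segments of the aorta, ascending and descending, and 2 branches, the coronary artery of the heart and the superior mesenteric artery of the gut, each on 3 Affymetrix arrays labelled as biological replicates. All 12 arrays held total RNA of untreated wild-type C57BL/6 mice at 8 weeks of age. The submitters' question was which expression profiles go with a vessel's embryonic origin. The labels do not say whether a replicate was 1 animal or a pool, and p-values here speak only to the spread among the samples at hand. Levels are on the log2 scale, on which 1 unit is a doubling. Each gene was read by a different probe set, so levels are compared between vessels and not between genes.

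Hox genes encode homeodomain transcription factors that give cells of the embryo their position along the head-to-tail axis. They lie in 4 clusters, and the order of the genes along a cluster is the order in which they are switched on in time and along the body, from anterior to posterior. Many adult mesenchymal and vascular cells keep part of this code, and Hox proteins bind DNA together with TALE homeodomain partners of the Pbx and Meis families. The wall of the ascending aorta derives largely from neural crest and second heart field, that of coronary arteries from the epicardium, that of the descending aorta from somites, and that of gut arteries from splanchnic mesoderm.

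HoxA levels tended to be highest in descending aorta and lowest in coronary artery. Over the 4 vessels together 0 of the 9 genes passed the limma F test. In 1 pair of vessels 1 of the 9 passed, against 3.14% of all genes in that pair. That call was lost when some single arrays were left out. Hoxa5, a gene of the middle of the cluster, was 3.37-fold lower in coronary artery than in descending aorta, with a log2 difference of -1.75 ± 0.39 (SE, n = 3 arrays per vessel, limma adjusted p = 0.0298). Hoxa7 was 1.87-fold lower there with a limma adjusted p of 0.0577. The descending aorta had the highest mean of the 4 vessels for 6 genes (Hoxa2, Hoxa4, Hoxa5, Hoxa6, Hoxa7 and Hoxa9), against 25.8% of all genes. Coronary artery had the lowest mean for 6 genes (Hoxa2, Hoxa3, Hoxa4, Hoxa5, Hoxa6 and Hoxa9), against 28.8% of all genes. Hoxa10 and Hoxa11, the most posterior of the 9, followed neither pattern.

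Several arrays carried transcripts of neighbouring tissues, which bears on what a vessel mean contains. The mean of 10 cardiomyocyte markers was between 10.34 and 10.51 in the 3 coronary artery arrays and between 4.06 and 5.98 in the other 9. The mean of 10 smooth muscle markers was between 5.55 and 5.75 in coronary artery, the lowest 3 arrays, and Myh11, the smooth muscle myosin heavy chain, was between 4.45 and 5.29 there against 6.75 to 10.87 elsewhere. Ascending aorta replicate 1 stood apart, with B cell and T cell marker means of 7.53 and 7.75 and a smooth muscle mean of 6.38 against 8.25 and 8.34 in the other ascending arrays. Superior mesenteric artery replicate 3 had a pancreatic acinar marker mean of 9.48, and replicates 2 and 3 had B cell means of 6.66 and 6.32. In bulk tissue of this kind, fewer cells of a type and less RNA per cell cannot be told apart.

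The start regions of Hoxa5 and Hoxa7, whose levels differed most between vessels relative to their spread, are shown to make the genes concrete. The sequences are the 250 bases before each annotated start in RefSeq on GRCm38.p6, both on the minus strand of chromosome 6 and written 5′ to 3′ in the direction of transcription.
Hoxa5, chr6:52204588-52204837: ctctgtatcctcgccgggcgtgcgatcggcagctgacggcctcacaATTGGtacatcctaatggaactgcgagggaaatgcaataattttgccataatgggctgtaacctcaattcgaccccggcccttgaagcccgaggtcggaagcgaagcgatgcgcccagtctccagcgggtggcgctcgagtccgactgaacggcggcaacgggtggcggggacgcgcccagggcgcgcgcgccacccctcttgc
Hoxa7, chr6:52218574-52218823: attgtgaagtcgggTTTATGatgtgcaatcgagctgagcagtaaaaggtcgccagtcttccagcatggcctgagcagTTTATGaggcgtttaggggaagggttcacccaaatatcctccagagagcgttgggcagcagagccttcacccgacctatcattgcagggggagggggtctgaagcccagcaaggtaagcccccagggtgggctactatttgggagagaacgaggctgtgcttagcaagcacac
Capitals mark matches to 6 motifs searched on both strands. These were the TATA box TATAAA, the CCAAT box CCAAT, the GC box GGGCGG, the Hox and Pbx site TGATTNAT, the single repeat AGGTCA of retinoic acid receptor elements and the Cdx site TTTATG. The Cdx motif was added after the sequences had been seen. The Hoxa5 window held 1 CCAAT box, read on the opposite strand 204 bases before the start, and the Hoxa7 window held 2 Cdx sites, 236 and 173 bases before the start. Of 32851 promoter windows of the same length, 33.8% held a CCAAT box and 10.8% a Cdx site. The other shares were 12.4% for the TATA box, 32.7% for the GC box, 2.82% for the Hox and Pbx site and 14% for the AGGTCA repeat. Among the windows of 8 matched genes (Hoxa4 was not matched), Hoxa2 held 4 CCAAT boxes and 1 Hox and Pbx site, and Hoxa6 held 5 GC boxes. These matches describe the letters only.

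Over the 4 vessels together, 0 of the 9 genes passed the limma moderated F test, against 4.72% of all genes. At an unadjusted p under 0.05 the F test counted 4 of the 9 (Hoxa4, Hoxa5, Hoxa7 and Hoxa9), against 16.4% of all genes. The lowest adjusted p-values in limma were 0.0598 for Hoxa5 and 0.0628 for Hoxa7, followed by 0.237 for Hoxa9 and 0.301 for Hoxa4. The others lay at 0.365 for Hoxa6, 0.457 for Hoxa11, 0.552 for Hoxa2, 0.693 for Hoxa3 and 0.954 for Hoxa10. Leaving out ascending aorta replicate 1 brought the count to 2 (Hoxa5 and Hoxa7), while the count over all genes went from 942 to 1825. Without ascending aorta replicate 2 it was 1 (Hoxa7), and without ascending aorta replicate 3 or coronary artery replicate 1 it was 1 (Hoxa5), with 913, 1000 and 637 over all genes. Without any other single array it was 0, with between 551 and 936 over all genes.

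**Figure D1:**
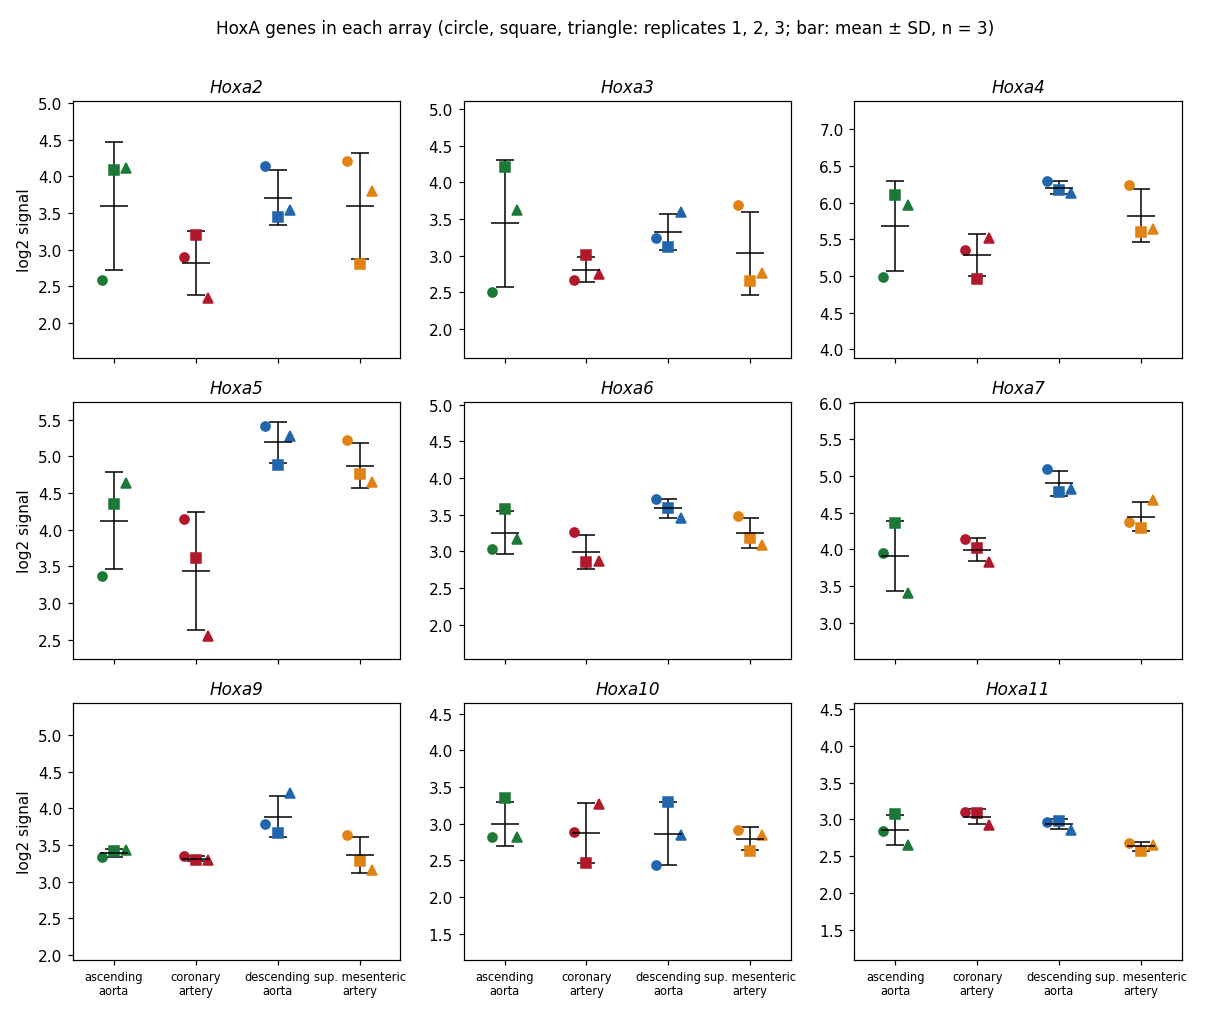
Level of each of the 9 HoxA genes (log2 signal, vertical axis) in the 3 arrays of each vessel (horizontal axis); symbols are replicates 1, 2 and 3 and bars are the mean ± SD. For Hoxa7 and Hoxa9 the 3 descending aorta arrays lie above the other 9 arrays, and for Hoxa10 the vessels overlap throughout.

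The anterior genes were Hoxa2, Hoxa3 and Hoxa4. Hoxa2 patterns the hindbrain and the second pharyngeal arch. Its level was 2.59, 4.09 and 4.11 in ascending aorta replicates 1, 2 and 3, and 2.91, 3.20 and 2.34 in coronary artery. It was 4.15, 3.45 and 3.54 in descending aorta and 4.21, 2.80 and 3.80 in superior mesenteric artery. The coronary arrays lay below the descending arrays without overlap, while the other vessels spanned most of the range; the coronary minus descending difference was -0.90 ± 0.44 (limma adjusted p = 0.441).

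Hoxa3 is needed for derivatives of the third pharyngeal arch and pouch, among them the carotid artery, thymus and parathyroid. It stood at 2.50, 4.21 and 3.62 in ascending aorta, 2.67, 3.001 and 2.75 in coronary artery, 3.24, 3.12 and 3.59 in descending aorta, and 3.69, 2.65 and 2.76 in superior mesenteric artery. Both the lowest and the highest array belonged to ascending aorta, and the vessel means spanned 0.63. Of the 6 pairs, coronary against descending aorta had no overlap, with a difference of -0.51 ± 0.38 (limma adjusted p = 0.689). With the mean of the smooth muscle markers as a covariate that difference turned to 0.14.

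Hoxa4, a gene of cervical and upper trunk identity, measured 4.98, 6.11 and 5.96 in ascending aorta and 5.36, 4.96 and 5.52 in coronary artery. It measured 6.30, 6.17 and 6.13 in descending aorta and 6.23, 5.59 and 5.64 in superior mesenteric artery. The descending arrays were the closest together (6.20 ± 0.086, SD, n = 3) and lay above all 3 arrays of both ascending aorta and coronary artery. The coronary minus descending difference was -0.92 ± 0.29 (limma adjusted p = 0.139), and without ascending aorta replicate 1 the same difference had a limma adjusted p of 0.0206. In that array Hoxa4 stood at 4.98, the lowest of its vessel. Without any other single array the difference did not pass (limma adjusted p = 0.117 to 0.381).

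The middle of the cluster was represented by Hoxa5, Hoxa6 and Hoxa7. Hoxa5 specifies the boundary of neck and thorax and is needed for lung and airway development. Its level was 3.37, 4.35 and 4.63 in ascending aorta, 4.14, 3.62 and 2.56 in coronary artery, 5.42, 4.88 and 5.27 in descending aorta, and 5.22, 4.75 and 4.65 in superior mesenteric artery. All 6 arrays of the trunk vessels (descending aorta and superior mesenteric artery) lay above all 6 arrays of the vessels at the heart, against 0.140% of all genes. The margin was narrow, between 4.65 in mesenteric replicate 3 and 4.63 in ascending replicate 3. The order of the means was descending aorta (5.19 ± 0.28), superior mesenteric artery (4.87 ± 0.30), ascending aorta (4.12 ± 0.66) and coronary artery (3.44 ± 0.81; SD, n = 3 each). No neighbours in that order differed past the threshold: descending and mesenteric arrays overlapped, ascending and coronary arrays overlapped, and ascending aorta lay below mesenteric artery by 1.69-fold (limma adjusted p = 0.768).

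The call on Hoxa5 between coronary artery and descending aorta had a 95% confidence interval of -2.61 to -0.90 for the log2 difference. Without coronary artery replicate 2 or 3, or without descending aorta replicate 1, 2 or 3, it did not pass, with limma adjusted p-values of 0.0799, 0.114, 0.128, 0.0693 and 0.105. Coronary artery replicate 3 held the lowest Hoxa5 value, and without it the difference was -1.31. The mean of the smooth muscle markers moved with the result, being 5.65 ± 0.098 in coronary artery and 7.14 ± 0.19 in descending aorta. Singly, 1 of these 10 markers was lower in coronary artery in limma and 1 was higher, with a median difference of -2.01. With the smooth muscle mean as a covariate the Hoxa5 difference was -1.32 (limma adjusted p = 0.118). That mean varied mostly within ascending aorta and superior mesenteric artery (SD 1.1 and 1.76) and little within coronary artery and descending aorta. The fit therefore cannot say how much of the Hoxa5 difference goes with smooth muscle content. The 7 measured adipocyte markers moved the same way, with 5 of 7 lower in coronary artery in limma and means of 6.23 to 6.52 against 8.25 to 9.01. The 8 brown adipocyte markers did so too, with 4 of 8 lower in coronary artery in limma and means of 5.99 to 6.19 against 7.85 to 8.65. The 8 mesothelial and epicardial markers moved the other way, with 1 of 8 higher in coronary artery in limma and means of 7.16 to 7.75 against 5.01 to 6.45. The part of these 3 marker lists in the result was not tested. All 10 cardiomyocyte markers were higher in coronary artery in limma, so the vessel and its heart muscle content cannot be told apart.

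Hoxa6, which neighbours Hoxa5 and acts in thoracic identity, was 3.03, 3.58 and 3.16 in ascending aorta and 3.26, 2.85 and 2.86 in coronary artery. It was 3.72, 3.60 and 3.45 in descending aorta and 3.49, 3.19 and 3.09 in superior mesenteric artery. The descending and coronary arrays did not overlap, and the difference between them was -0.60 ± 0.20 (limma adjusted p = 0.179). Across the 12 arrays its level went with that of both neighbours on its anterior side, with a Pearson r of 0.85 with Hoxa4 and 0.79 with Hoxa5. These arrays share vessels and differ in tissue content, so the values are descriptions.

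Hoxa7 acts in thoracic vertebral identity. It was 3.95, 4.36 and 3.41 in ascending aorta, 4.14, 4.01 and 3.83 in coronary artery, 5.10, 4.79 and 4.82 in descending aorta, and 4.37, 4.29 and 4.67 in superior mesenteric artery. The 3 descending arrays lay above the other 9, a pattern seen in 2.52% of all genes and in 2 of the 9 HoxA genes (Hoxa7 and Hoxa9). The means ran from descending aorta (4.90 ± 0.17) through superior mesenteric artery (4.44 ± 0.20) and coronary artery (3.995 ± 0.16) to ascending aorta (3.90 ± 0.48; SD, n = 3 each). Mesenteric values lay between the other groups, above coronary artery without overlap and overlapping ascending aorta at its replicate 2. The descending minus mesenteric difference was 0.46 ± 0.23 and the coronary minus mesenteric difference -0.45 ± 0.23 (limma adjusted p = 0.41 and 0.401). Coronary artery differed from descending aorta by -0.91 ± 0.23, which did not pass with all arrays. It passed without ascending aorta replicate 1, 2 or 3 (limma adjusted p = 0.0399, 0.032 and 0.0249), where the difference itself stayed at -0.91. Without any other single array it did not pass (limma adjusted p = 0.0703 to 0.221).

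The posterior genes were Hoxa9, Hoxa10 and Hoxa11. Hoxa9 is best known for its part in blood stem cells and in leukaemia. It measured 3.33, 3.42 and 3.43 in ascending aorta, 3.35, 3.29 and 3.30 in coronary artery, 3.79, 3.66 and 4.20 in descending aorta, and 3.63, 3.28 and 3.16 in superior mesenteric artery. Ascending and coronary arrays were tightly grouped at 3.39 ± 0.053 and 3.31 ± 0.034, and the descending arrays, at 3.88 ± 0.28, stood above every other array. The margin was narrow, since mesenteric replicate 1 stood at 3.63 and descending replicate 2 at 3.66. Descending minus mesenteric was 0.53 ± 0.19 (limma adjusted p = 0.189) and coronary minus descending was -0.57 ± 0.19 (limma adjusted p = 0.163).

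Hoxa10, which patterns the lumbar spine and the uterus, was 2.82, 3.34 and 2.82 in ascending aorta, 2.88, 2.46 and 3.27 in coronary artery, 2.44, 3.30 and 2.85 in descending aorta, and 2.91, 2.62 and 2.85 in superior mesenteric artery. The vessels overlapped completely and their means spanned 0.20, less than the SD within 3 of the 4 vessels. Hoxa11, a gene of the forearm and lower leg and of the reproductive tract, was 2.84, 3.07 and 2.66 in ascending aorta and 3.10, 3.09 and 2.93 in coronary artery. It was 2.96, 2.98 and 2.85 in descending aorta and 2.68, 2.56 and 2.65 in superior mesenteric artery. Its coronary arrays all lay above its mesenteric arrays, with a difference of 0.41 ± 0.16 (limma adjusted p = 0.246). The share of all genes with that order was not counted. Whether levels near 3 or below lie above background is not known, as no detection calls were used. This holds for Hoxa10 and Hoxa11 and for the coronary artery means of Hoxa2 (2.82), Hoxa3 (2.81), Hoxa6 (2.99) and Hoxa9 (3.31). Some means in other vessels were about as low. In superior mesenteric artery they were 3.03 for Hoxa3, 3.25 for Hoxa6 and 3.36 for Hoxa9. In ascending aorta they were 3.26 for Hoxa6 and 3.39 for Hoxa9, and in descending aorta 3.32 for Hoxa3. The limit also holds for Hoxa5 in coronary artery replicate 3 (2.56).

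Between coronary artery and descending aorta, 1 of the 9 genes was called, against 3.14% of all genes. Whatever their p-values, 7 of the 9 had all coronary arrays below all descending arrays (Hoxa2, Hoxa3, Hoxa4, Hoxa5, Hoxa6, Hoxa7 and Hoxa9), against 12.5% of all genes. The median difference over the 9 genes was -0.60, beside -0.0069 over all genes, and the 2 genes above 0 were Hoxa10 and Hoxa11 (0.011 and 0.11), that of Hoxa10 turning below 0 with renewed quantile normalization or median centring. The count of called genes was 3 (Hoxa4, Hoxa5 and Hoxa7) without ascending aorta replicate 1, where the count over all genes went from 627 to 1056. It was 2 (Hoxa5 and Hoxa7) without ascending aorta replicate 2 or 3, with 613 and 617 over all genes. It was 0 without coronary artery replicate 2 or 3 or any 1 of the descending arrays, with between 324 and 457 over all genes. With the smooth muscle marker mean as a covariate the difference was -0.48 for Hoxa4, -0.41 for Hoxa6, -0.96 for Hoxa7 and -0.41 for Hoxa9, and none passed (limma adjusted p = 0.444, 0.475, 0.0994 and 0.443).

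**Figure D2:**
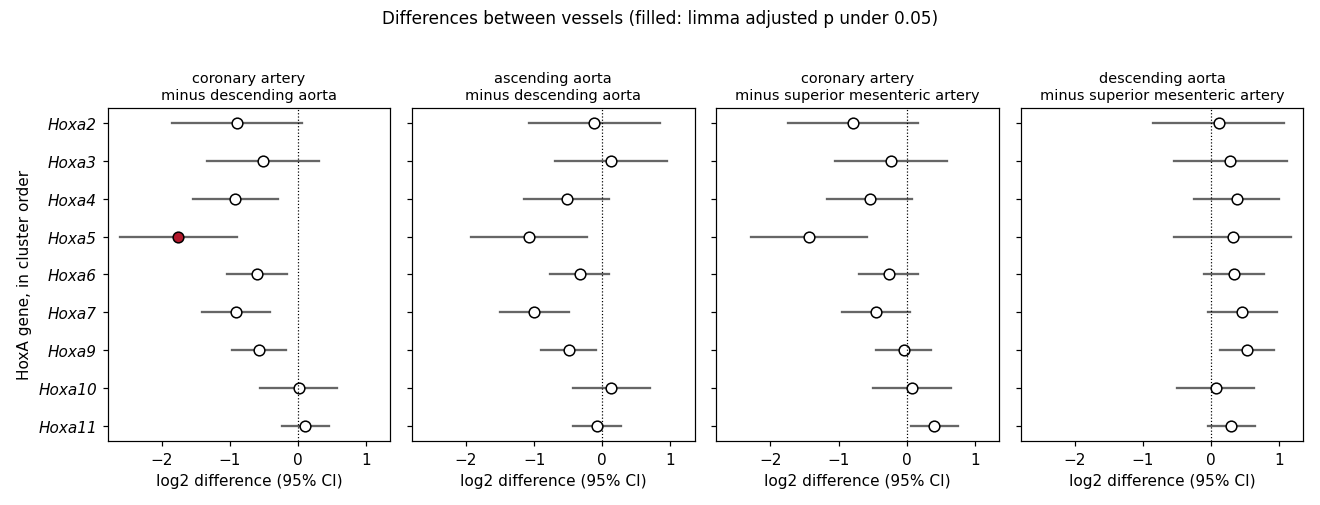
Log2 difference with its 95% confidence interval (horizontal axis) for each HoxA gene in cluster order (vertical axis) in 4 pairs of vessels; a filled point passed the limma threshold. Hoxa5 in the coronary minus descending comparison is the filled point, at -1.75, and points from Hoxa2 to Hoxa9 in that comparison lie left of 0.

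Between the aortic segments, 0 of the 9 genes passed, against 0.0150% of all genes, which is 3 genes. At an unadjusted p under 0.05 the limma count was 3 (Hoxa5, Hoxa7 and Hoxa9), against 9.64% of all genes. All 3 ascending arrays lay below all 3 descending arrays for 4 genes (Hoxa4, Hoxa5, Hoxa7 and Hoxa9), against 9.62% of all genes. The largest differences of the 9 were -1.07 ± 0.39 for Hoxa5 and -0.996 ± 0.23 for Hoxa7 (limma adjusted p = 0.449 and 0.348). Without ascending aorta replicate 1, the array with the lymphocyte transcripts and the lowest fibroblast mean, the Hoxa5 difference was -0.70 and the Hoxa7 difference -1.02. The median over the 9 genes was -0.33 beside -0.016 over all genes.

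The mean in superior mesenteric artery lay between that of descending aorta and those of the vessels at the heart for Hoxa2, Hoxa4, Hoxa5 and Hoxa7. For Hoxa2 the mesenteric and ascending means were nearly equal (3.602 and 3.597). The ascending minus mesenteric difference changed sign in 7 of 25 alternatives for Hoxa2 and in 4 of 25 for Hoxa4. Between mesenteric artery and descending aorta 0 of 9 genes passed, against 3.20% of all genes. The limma count at an unadjusted p under 0.05 was 1 (Hoxa9), against 13.9%. All 9 differences, descending minus mesenteric, were above 0, from 0.066 for Hoxa10 to 0.53 for Hoxa9, with a median of 0.31 beside -0.0080 over all genes. Those of Hoxa2, Hoxa3, Hoxa4 and Hoxa10 turned below 0 with lymphoid markers as a covariate; that of Hoxa2 also did without descending replicate 1 or mesenteric replicate 2, and that of Hoxa10 without descending or mesenteric replicate 2. Fat markers moved with this comparison: in limma 6 of 8 brown adipocyte and 4 of 7 adipocyte markers were higher in descending aorta, with brown adipocyte means of 7.85 to 8.65 against 4.17 to 5.02 and adipocyte means of 8.25 to 9.01 against 6.73 to 6.99. Their part in the result was not tested. The 3 descending arrays lay above the 3 mesenteric arrays for Hoxa7, Hoxa9 and Hoxa11, against 12.5% of all genes. Mesenteric replicate 1 was the highest of its vessel for 8 of the 9 genes. It had the highest smooth muscle and endothelial means of the 12 arrays (9.24 and 7.69). Its B cell, T cell and macrophage means were the lowest of its vessel (4.66, 4.77 and 6.74). The part of each in the HoxA levels was not tested.

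Coronary and mesenteric arteries did not differ past the threshold for any of the 9 genes, against 3.24% of all genes; at an unadjusted p under 0.05 limma counted 2 (Hoxa5 and Hoxa11), against 14.8%. Coronary arrays lay below mesenteric arrays for 3 genes (Hoxa4, Hoxa5 and Hoxa7), against 11.1% of all genes. The Hoxa5 difference was -1.44 ± 0.39 (limma adjusted p = 0.0758). It passed without ascending aorta replicate 1 (0.0196) or coronary artery replicate 1 (0.0443), with 1292 and 438 over all genes. Without any other single array it did not pass (limma adjusted p up to 0.288). For ascending aorta against coronary artery the limma count was 0 of 9, against 2.47% of all genes, and it was 0 also at an unadjusted p under 0.05, against 14.8%. For ascending aorta against mesenteric artery it was 0 of 9, against 0.176% of all genes, and 1 (Hoxa7) at an unadjusted p under 0.05, against 7.22%. That Hoxa7 difference was -0.54 ± 0.23, and -0.29 without ascending aorta replicate 3.

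With the trunk vessels averaged against the vessels at the heart, 0 of the 9 genes passed, against 0.717% of all genes, and limma counted 3 (Hoxa4, Hoxa5 and Hoxa7) at an unadjusted p under 0.05, against 7.65%. Hoxa5 was higher in the trunk vessels by 1.25 ± 0.28 and Hoxa7 by 0.72 ± 0.16 (limma adjusted p = 0.0774 and 0.0841). Without ascending aorta replicate 2 Hoxa7 passed (0.0293), and without coronary artery replicate 1 Hoxa5 passed (0.0416), with 121 and 118 over all genes. Neither gene passed without any other single array (limma adjusted p up to 0.242 for Hoxa7 and 0.212 for Hoxa5). With p-values adjusted over all 7 comparisons together both passed, Hoxa5 at 0.0437 and Hoxa7 at 0.0485. The count over all genes then went from 143 to 186. The comparisons share arrays and are not independent.

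**Figure D3:**
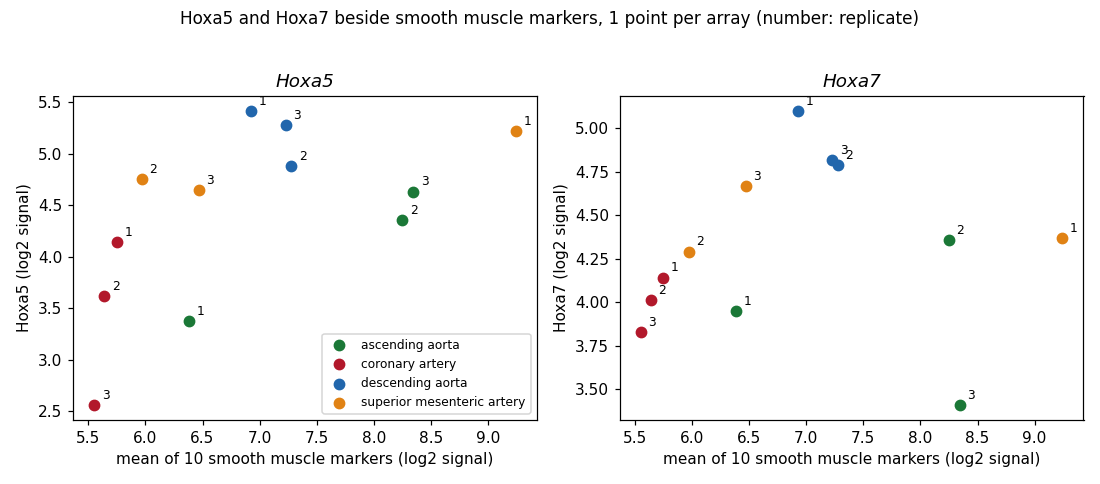
Level of Hoxa5 (left) and Hoxa7 (right; log2 signal, vertical axes) against the mean of 10 smooth muscle markers (log2 signal, horizontal axis), with 1 point per array numbered by replicate. On the marker axis the 3 coronary artery arrays lie lowest, between 5.55 and 5.75, and superior mesenteric artery replicate 1 lies highest, at 9.24. The part of smooth muscle content in the levels was not tested. The covariate fit cannot give it, as the marker mean varied little within coronary artery and descending aorta (SD 0.098 and 0.19).

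In the other Hox clusters, 4 genes passed the F test. In HoxB, Hoxb5 and Hoxb6, the paralogues of Hoxa5 and Hoxa6, were 2 of 9 measured genes that passed the F test (limma adjusted p = 0.0288 and 0.0049). Hoxb6 was lower in coronary artery than in descending aorta by a log2 difference of -2.19 ± 0.33 and Hoxb5 by -2.04 ± 0.44 (limma adjusted p = 0.00238 and 0.024). In HoxC, 2 of 9 passed, Hoxc6 and Hoxc8, which were higher in descending aorta than in superior mesenteric artery by 2.39 ± 0.24 and 2.002 ± 0.31 (limma adjusted p = 0.000582 and 0.00389). In that same comparison Hoxa5, Hoxa6 and Hoxa7 differed by 0.31, 0.33 and 0.46 and none passed. In HoxD, 0 of 9 passed, with a median coronary minus descending difference of 0.063, beside -0.40 in HoxB, -0.17 in HoxC and -0.60 in the 9 HoxA genes. The 9 HoxA genes leave out Hoxa13 (-0.13), while the other medians include Hoxb13, Hoxc13 and Hoxd13. Whether the clusters differ from one another was not tested.

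**Figure D4:**
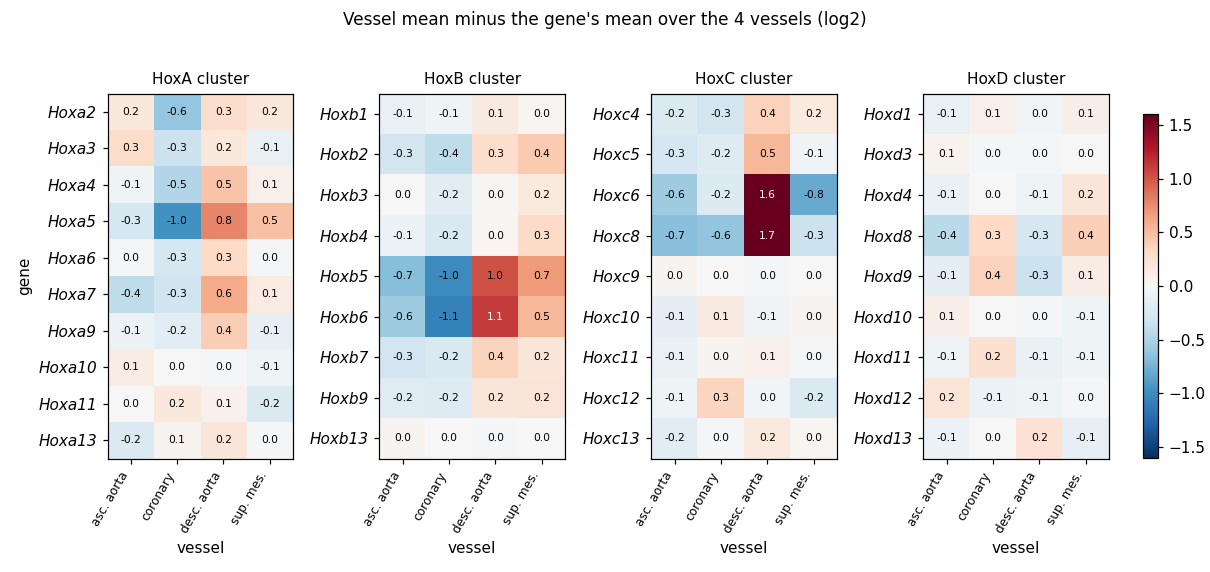
Vessel mean minus the gene's mean over the 4 vessels (colour and printed number, log2) for the measured genes of the 4 Hox clusters (rows, in cluster order) in each vessel (columns). Descending aorta holds the highest value of Hoxa5 (0.8) in the HoxA panel, and the highest values of all panels are those of Hoxc6 and Hoxc8 (1.6 and 1.7).

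Genes around the cluster and its regulators were taken from lists. Hoxa13, the most posterior gene of the cluster, lay between 2.37 and 2.80 in the 4 vessels (adjusted p = 0.695 in the limma F test), and the noncoding transcripts Hoxaas2 and Hottip did not pass either. Of 6 measured genes beside the cluster, 3 passed the F test (Skap2, Hibadh and Snx10). Skap2, an adaptor protein of immune cell signalling that lies next to the anterior end of the cluster, averaged 4.93 in coronary artery against 6.10 in descending aorta, a difference of -1.16 ± 0.24 (limma adjusted p = 0.0168). In ascending aorta it averaged 6.22. Snx10, a sorting nexin, was lower in coronary artery than in descending aorta by -1.19 ± 0.26, and Hibadh, an enzyme of valine breakdown, was higher in descending aorta than in mesenteric artery by 1.91 ± 0.29 (limma adjusted p = 0.0267 and 0.00326).

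Of 8 measured TALE cofactors (Pbx, Meis and Pknox genes) 0 passed the F test; Meis1 had the widest range of vessel means, from 4.89 in ascending aorta to 5.92 in mesenteric artery (limma adjusted p = 0.325). Of 23 Polycomb and trithorax genes, which keep Hox genes silent or active, 0 passed. Of 21 Cdx and retinoic acid genes, which act upstream of Hox genes in the embryo, 1 passed: Rxrg, a retinoid X receptor, was higher in coronary artery (4.63) than in descending aorta (3.50), by 1.13 ± 0.24 (limma adjusted p = 0.0252). Some listed genes were not analysed here.

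The genes whose pattern over the 12 arrays was most like those of Hoxa5, Hoxa7 and Hoxa9 were found by Pearson r among all genes outside the 9. For Hoxa5 they were Nr2c1, an orphan nuclear receptor, at 0.95, Shisa2 at 0.89 and Gsc, the homeobox gene goosecoid, at 0.89. For Hoxa7 they were Timm22, part of the mitochondrial inner membrane import machinery, at 0.88, Nrl, a photoreceptor transcription factor, at 0.87 and Hoxb6 at 0.82. For Hoxa9 they were H3f3a, a histone gene, at 0.92, and Cox15 and Akap1, with mitochondrial products, at 0.91 and 0.90. Nr2c1 spanned 3.52 to 3.99 between vessel means, where Hoxa5 spanned 3.44 to 5.19. Whether Nrl (vessel means of 2.27 to 2.69) and Gsc (3.09 to 3.51) lie above background is not known. With 12 arrays and 19938 genes these are descriptions of likeness.

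Among the 9 genes, the closest pairs over the 12 arrays were Hoxa4 with Hoxa6 (r = 0.85), Hoxa5 with Hoxa6 (0.79) and Hoxa2 with Hoxa3 (0.78). Hoxa10 and Hoxa11 went with none of the others in the same way, their highest values being 0.29 for Hoxa10 with Hoxa3 and 0.20 for Hoxa11 with Hoxa10. Within vessels, ascending aorta replicate 1 was the lowest of its vessel for 6 of the 9 genes and mesenteric replicate 2 for 6. The transcripts of the cluster lie close together, and whether each probe set reads 1 gene alone was not checked.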

How the data were processed

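Per the submitters' processing notes, RMA and Partek 6.6 were used, in an unstated order. The authors deposited 1 table of log2 values for 35556 probe sets in 12 arrays, used as deposited; for their normalization the sources used here give no setting, and the near-equal array medians (4.04 to 4.18) are those of normalized data. Of the probe sets, 21789 had 1 gene symbol, 1621 several and 12146 none, the latter groups being left out; for 999 genes with several probe sets the one with the highest mean was taken, which gave 19938 genes. A model with 1 mean per vessel was fitted with limma 3.58.1 in R 4.3.3 (8 residual degrees of freedom). It gave a moderated F test and 7 contrasts (6 pairs and 1 of averages), each with Benjamini-Hochberg adjustment over all genes and a threshold of 0.05. The number of arrays limits the precision.

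The members and gene lists were chosen with earlier results of these data known. All members are named; list genes are named where they pass the F test or have among the widest ranges; likeness was ranked for the 3 members with the lowest F test p, unnamed gene models skipped. Alternatives numbered 25, 12 of them leaving out 1 array. The procedure was tested on simulated data. Promoters came from RefSeq (GRCm38.p6), and figures from Python 3.11.15 with matplotlib 3.10.9.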

Additional observations from a re-analysis of the deposited data

How the results depend on the processing

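Of the 63 differences of the 9 genes in 7 comparisons, 25 changed sign under at least 1 of up to 25 alternatives, the largest being that of Hoxa2 between ascending aorta and coronary artery (0.78, and -0.12 with the smooth muscle covariate); 0 of these 25 had an unadjusted p under 0.05. The Hoxa5 difference between coronary artery and descending aorta ranged from -2.10 to -1.31 and passed in 18 of 25 (limma adjusted p between 0.00504 and 0.128). The 15 differences with an unadjusted p under 0.05 kept their direction; over their settings, 342 values kept their side of the threshold, 22 newly passed and 7 no longer did, these 7 all being that of Hoxa5.

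Counts of called genes moved as follows. With array weights, which down-weight arrays that scatter, they were 3 in the F test (1818 over all genes, from 942) and 3 for coronary artery against descending aorta (1095, from 627). They were 1 for coronary against superior mesenteric artery (1129, from 645) and 2 for trunk against heart (302, from 143). With the lymphoid markers as a covariate, chosen after the data were seen, they were 2, 3, 2 and 2 in the same order. The counts over all genes were then 1223, 963, 745 and 290. For ascending aorta against coronary artery the count was 1 (843 over all genes, from 493). With the smooth muscle covariate, also chosen then, the F test gave 1 (1645 over all genes) and coronary against descending 0 (657). Coronary against descending gave 3 with only its 6 arrays fitted, where the count over all genes was 1261. It gave 0 with the replicate number as a block (Hoxa5 limma adjusted p = 0.0656), with 525 over all genes. The block changed no other call of the 9 genes. Over all genes, deviations from the vessel means correlated at -0.251 to 0.0889 between same-numbered arrays of different vessels (18 pairs). Tissue carried into single arrays could hide a shared animal, and the labels name none. Whether same-numbered arrays were paired is therefore not known. Adjustment over the 7 comparisons gave 2 for trunk against heart (186 over all genes, from 143). Leaving out 1 array gave 0 to 2 in the F test (551 to 1825 over all genes) and 0 to 3 for coronary against descending (324 to 1056). It gave 0 to 1 for coronary against mesenteric (314 to 1292), 0 to 1 for trunk against heart (98 to 323), and 0 in the other 4 pairs. The renewed quantile normalization, median centring, both probe set rules and the robust variance left the counts the same. So did the filter on dim genes (14953 genes, 7 of the 9 kept). Leaving out 3 arrays together, replicate 1 of both aortic segments and mesenteric replicate 3, also changed no count. That setting did not remove all transcripts of other tissues. The coronary arrays stayed in, with cardiomyocyte marker means of 10.34 to 10.51, as did mesenteric replicate 2, with a B cell mean of 6.66. Why counts moved was not tested. Signal over background was not assessed, which limits what can be said of genes near 3.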
